A study of Danio rerio with 18 samples.

Results

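A set of 36 transcripts stood higher in retinoic acid-exposed zebrafish embryos at 12 somites and again at 24 hours post fertilisation (24 hpf) than in controls, and was limited to transcripts whose scaled difference at 80% epiboly was small, a limit that low levels meet through the 0.5 CPM added to both groups. The set was drawn from the 58549 Ensembl transcript IDs of the count files by measured values: members were chosen by their atRA-to-control ratios at the 3 stages. Counts were scaled to a common library total (CPM), and at each stage the difference d was the log2 ratio of the mean CPM with all-trans retinoic acid (atRA) to that of controls, after 0.5 CPM was added to both. Members had a d of at least 1 at 12 somites (d12) and at 24 hpf (d24), and an absolute d under 0.5 at 80% epiboly (d80). The values of these 3 contrasts are therefore a description of the choice, with no test.

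Whole wild-type embryos (Danio rerio) were compared after exposure to 0.1 µM atRA or to DMSO, the solvent, with 3 libraries for each of 6 groups. For the 80% epiboly groups, atRA or DMSO was added at 30% epiboly. For the 12 somites and 24 hpf groups it was added at 80% epiboly, so these embryos share an onset and differ in the length of exposure and in stage. How many embryos made up a library, and whether replicates came from separate clutches, is not given in the sources used here, and p-values may then measure technical spread only.

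Retinoic acid is made from vitamin A and acts by binding nuclear retinoic acid receptors, which sit on DNA with retinoid X receptors and switch transcription of target genes. In vertebrate embryos it is known for patterning the hindbrain and spinal cord along the head-to-tail axis and for roles in the somites, heart, pancreas and limb or fin buds. Enzymes of the Cyp26 family degrade it, and excess retinoic acid is a classic teratogen. Of the 58549 transcript IDs, 0 were paired with a gene name by the tables used here, so the transcripts are described by ID and by measured behaviour, with no gene role. Gene and cell type markers, the makeup of the embryos and the sequences of the transcripts were not analysed here. In RNA from whole embryos, a change in the number of cells of a type and a change in RNA per cell cannot be told apart.

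Depth and spread differed most at 24 hpf. Counts assigned to transcripts per library ran from 68391282 to 72734557 in 24 hpf controls and from 38673189 to 50505506 with atRA. Among the earlier stages they ran from 77807705 to 115511468. The 24 hpf control replicates 2 and 3 both lay off their group mean: over transcripts with at least 1 CPM in all 6 group means, the median absolute deviation was 0.21 and 0.17 on the log2 scale, against 0.063 for replicate 1. In the 24 hpf atRA group it was 0.10 and 0.12 for replicates 2 and 3, against 0.056 for replicate 1. Leaving out control replicate 2 gave 37 members, of which 34 were among the 36, and leaving out control replicate 3 gave 33, of which 30 were. Leaving out the 24 hpf atRA replicate 1 gave 30 members, of which 29 were among the 36. Other library traits also moved with treatment at 24 hpf. Reads on no annotated feature made up 5.60 to 6.35% of the 24 hpf control libraries and 3.83 to 4.29% of the atRA libraries. Ambiguous reads made up 16.95 to 17.1% and 17.9 to 17.98%, and 49902 to 50400 transcripts had counts in controls against 48564 to 48703 with atRA. The part of these traits and of the lower depth in the result was not tested.

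At 12 somites, all transcripts with at least 0.5 CPM in a later group mean, 38152 in number, had a median d12 of -0.02, and 1.25% of them reached a d12 of 1. Among the 36 members d12 ran from 1.00 to 3.50 with a median of 1.54. At 24 hpf, d24 ran from 1.02 to 3.43 with a median of 1.30, against a median of -0.08 and a share of 0.763% at or above 1 among all 38152. The difference was smaller at 24 hpf than at 12 somites for 26 members and larger for 10. A d12 of at least 2 was found for 11 members and a d24 of at least 2 for 2, while 14 members were under 1.5 at both stages. Just inside the limits were a d12 of 1.00 and a d24 of 1.02, and just outside were a d12 of 0.98 and a d24 of 1.00 (0.9975). The nearest d80 inside the limit was 0.48 in size and the nearest outside was 0.62.

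**Figure D1:**
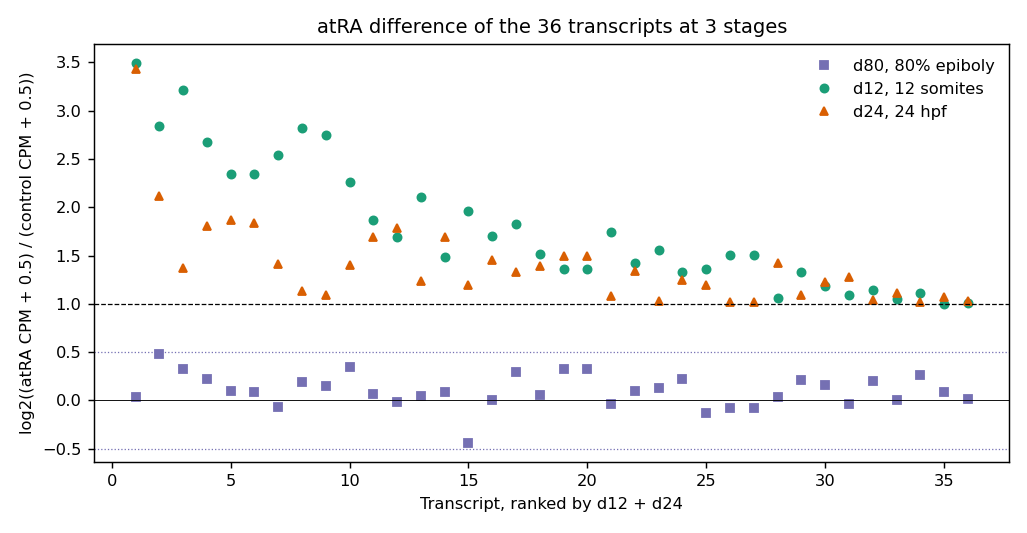
Difference between atRA and control at each stage (y axis, log2 ratio of mean CPM after adding 0.5) for the 36 transcripts ranked by d12 + d24 (x axis). Squares are 80% epiboly, circles 12 somites and triangles 24 hpf, the dashed line marks 1 and the dotted lines mark 0.5 and -0.5. The circles lie above the triangles for 26 transcripts, and the first transcript has d12 and d24 of 3.50 and 3.43.

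The groups did not overlap at 12 somites or at 24 hpf for any of the 36 members. Among the 38152 transcripts, 21.4% had atRA libraries wholly above controls at 12 somites and 12.4% at 24 hpf. With edgeR's quasi-likelihood test and an adjusted p under 0.05, 36 of 36 members were called higher at 12 somites, beside 17.7% of all transcripts tested. At 24 hpf 36 of 36 were called higher, beside 4.09% of all. The rule used both contrasts, so these counts follow from the choice. The 24 hpf count was 23 of 36 without atRA replicate 1, beside 270 of all 42678 transcripts tested in that setting.

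ENSDART00000054228.5 had the largest d12 + d24 of the set. It held 0 counts in all 3 control libraries at 80% epiboly, and 0, 0 and 3 counts with atRA. At 12 somites the controls stood at 1.81, 1.72 and 1.78 CPM and the atRA libraries at 23.9, 24.5 and 27.0 CPM, a ratio of means of 14.2. At 24 hpf the controls stood at 6.79, 8.31 and 6.26 CPM and the atRA libraries at 89.5, 78.5 and 76.9 CPM, a ratio of 11.5. The lowest treated library was above the highest control at both later stages, and the treated 12 somites libraries were above the 24 hpf controls. In controls its level rose from 80% epiboly to 12 somites by at least 60.7-fold, computed against a floor of 3 counts per library (edgeR's quasi-likelihood test, adjusted p = 1.59e-09). From 12 somites to 24 hpf it rose in controls by 2.02 on the log2 scale (SE 0.19, adjusted p = 0.000101, edgeR) and with atRA by 1.78 (SE 0.084, adjusted p = 2.91e-08, edgeR). The same libraries were used to choose this transcript, so these rises are not independent of the choice.

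ENSDART00000046638.7 had the highest treated CPM of the set in the mean over both later stages, not divided by transcript length; at 12 somites alone ENSDART00000026749.8 was higher, with a mean of 73.3 against 71.7 CPM. At 80% epiboly it was already present, with 4.72, 5.18 and 5.13 CPM in controls and 7.997, 6.61 and 6.99 CPM with atRA, and its d80 of 0.48 was the largest in the set. The 12 somites controls held 9.44, 9.45 and 9.85 CPM and the atRA libraries 74.6, 71.9 and 68.5 CPM. Control libraries at 24 hpf held 29.7, 32.1 and 28.3 CPM, and atRA libraries 150.8, 132.7 and 113.3 CPM. No treated library overlapped a control at any of the 3 stages, and the ratio of means was 1.44, 7.48 and 4.40 in order of stage. In controls it rose at both steps, by 0.61 on the log2 scale to 12 somites (SE 0.073, adjusted p = 3.49e-06, edgeR) and by 1.65 to 24 hpf (SE 0.12, adjusted p = 3.81e-05, edgeR). These control libraries also entered the rule.

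ENSDART00000026749.8 was chosen for the largest fall in controls from 12 somites to 24 hpf, so that fall is a description. Controls and atRA libraries overlapped at 80% epiboly, with 49.8, 49.9 and 44.5 CPM against 49.8, 53.7 and 41.1 CPM. At 12 somites controls held 39.3, 33.9 and 32.1 CPM, and atRA libraries 72.5, 75.7 and 71.7 CPM. By 24 hpf controls were at 5.55, 7.62 and 5.64 CPM and atRA libraries at 13.4, 12.9 and 16.1 CPM. The treated level thus stood about as far above control at both later stages, with ratios of means of 2.09 and 2.25, while both groups were lower at 24 hpf than at 12 somites. From 12 somites to 24 hpf the atRA level fell by 2.29 on the log2 scale (SE 0.12). The choice used the control fall over this step and both ratios, so the atRA fall is a description too.

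ENSDART00000144335.1 was chosen for the largest fall in controls from 80% epiboly to 12 somites. It held 72.4, 72.3 and 72.8 CPM in 80% epiboly controls and 50.7, 55.4 and 53.9 CPM with atRA, the lowest d80 of the set at -0.44. The order was the opposite at 12 somites, with 7.89, 8.25 and 8.27 CPM in controls and 33.4, 33.6 and 32.8 CPM with atRA. At 24 hpf controls held 10.7, 11.0 and 10.8 CPM and atRA libraries 28.8, 26.5 and 21.3 CPM. It was the only member whose treated libraries all lay below the controls at 80% epiboly.

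**Figure D2:**
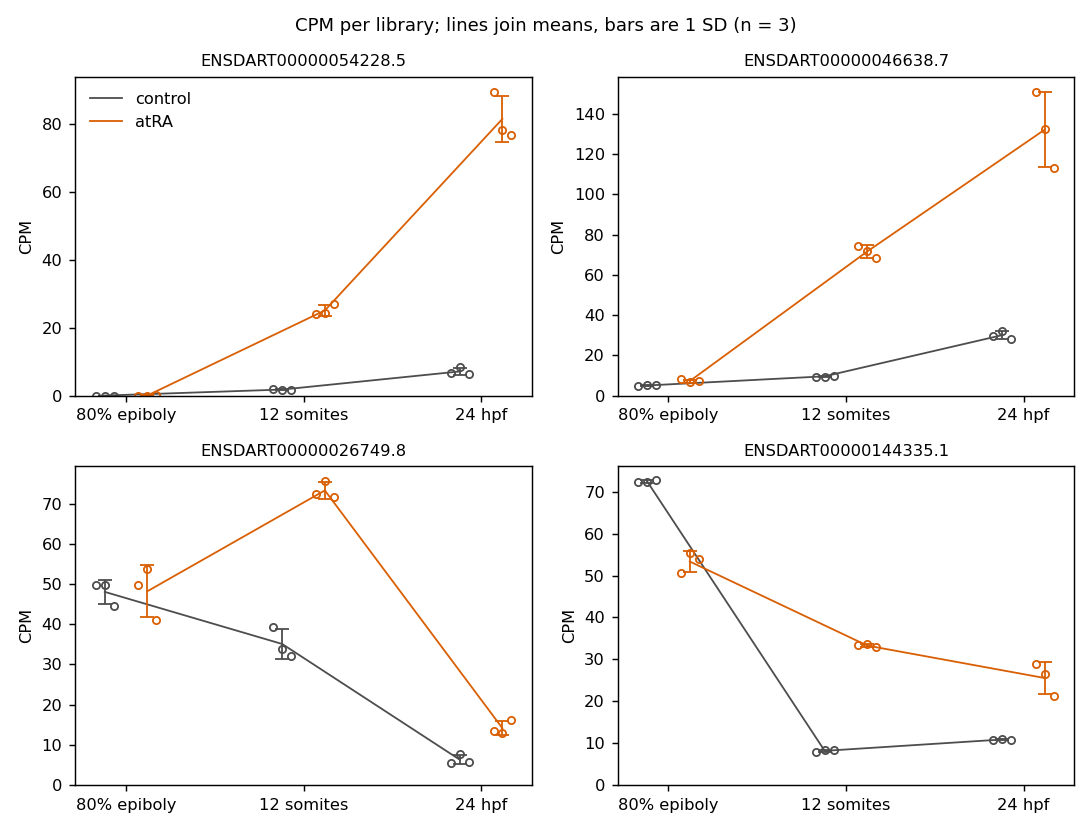
CPM (y axis, linear from 0) of 4 transcripts in each library at 3 stages (x axis); open circles are libraries, lines join group means and bars are 1 SD (n = 3). In the upper panels both groups are highest at 24 hpf, while in the lower panels treated libraries lie above controls at 12 somites and 24 hpf on a level that is lower at 24 hpf than at 80% epiboly.

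The small difference at 80% epiboly rested on low levels for most members. Both group means were under 0.5 CPM at that stage for 29 of the 36, where the added 0.5 CPM holds d80 near 0, and 2 members had at most 3 counts in each of the 6 libraries. Without the added 0.5 CPM, among the other 34 members the atRA mean was at least 2 times the control mean for 11 and at most 0.5 times for 0. The sign of d80 was positive for 28 members and negative for 8. Treated libraries lay wholly above controls for 13 members, beside 27.3% of the 38152 transcripts, and wholly below for 1, beside 14.1%. Of 25 members with enough counts to be tested there, 6 were called higher, 24% against 14.1% of all transcripts, and 1 was called lower, 4% against 13.7%, which makes 7 calls, 28% against 27.8%. The rule used this contrast too, and nothing is read from these counts. The remaining 7 members had at least 0.5 CPM in an 80% epiboly group mean, with control means from 0.673 to 72.5 CPM and d80 from -0.44 to 0.48.

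The rule was also read in replicates left out of the choice. It was applied to 2 replicate numbers of every group, and the libraries of the remaining number were read alone. With replicate 1 left out, 38 transcripts were chosen, of which 33 had a d12 of at least 1 and 30 a d24 of at least 1 in replicate 1, against 1.37% and 0.889% of the 38152 transcripts. With replicate 2 left out, 31 and 22 of 32 did so, against 1.48% and 8.06%. With replicate 3 left out, 31 and 21 of 38 did so, against 1.25% and 1.64%. All 3 criteria were met in the left-out replicate by 22 of 38, 21 of 32 and 21 of 38 transcripts, and 31, 28 and 29 of those chosen were among the 36. The share of all transcripts that met all 3 in a left-out replicate was not computed, so nothing is read from these counts. The lowest d12 in a left-out replicate was 0.83, and the lowest d24 was -1.29. A d of at least 1 was thus met more often at 12 somites than at 24 hpf in these 3 readings, a comparison that was not tested. The median d12 in the left-out replicate was 1.53, 1.62 and 1.45, and the median d24 was 1.39, 1.23 and 1.06. The d12 values thus lay farther above the shared limit of 1. At 24 hpf, replicates 2 and 3 of both groups lay farther from their group means than replicate 1, as above. The part of this in the comparison was not tested, and replicate numbers are not known to pair the libraries.

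The normal course of the members was examined in control libraries, a contrast the rule did not use, although the same control libraries enter it. From 80% epiboly to 12 somites, 25 of 31 members tested were higher at the later stage (80.6%, against 44.3% of all transcripts tested) and 4 were lower (12.9%, against 39.9%), so that 29 were called at all, 93.5% against 84.2%. The other 5 members did not pass the filter on low counts, and without that filter 33 of 36 were called, 26 higher and 7 lower. In that setting 37615 of all 53668 transcripts tested were called, 20215 of them higher. From 12 somites to 24 hpf, 24 of 35 were higher (68.6%, against 32.3% of all) and 3 were lower (8.57%, against 26.7%), so that 27 were called, 77.1% against 59%. All calls are at an adjusted p under 0.05 in edgeR's quasi-likelihood test. The median control level of the 36 was 0.114 CPM at 80% epiboly, 1.19 CPM at 12 somites and 4.54 CPM at 24 hpf. After adding 0.5 CPM, the median log2 change was 0.87 over the first step and 0.79 over the second, against 0.32 and 0.00 (-0.00095) for the 38152 transcripts. Control means were highest at 24 hpf for 29 members, at 12 somites for 3 and at 80% epiboly for 4. The same split over all transcripts was not computed, so no excess among members is read from it. The shares of members called higher at the 2 steps are not independent of the choice or of the filter. Members with few counts at the earlier stage, such as ENSDART00000054228.5 with 0 at 80% epiboly, passed the filter only through the later stage. For these a rise could be called but not a fall. The 38152 transcripts had a median control level of 3.27 CPM at 80% epiboly, so the shares over all transcripts are not a like comparison. A low level at 80% epiboly helps a transcript meet the limit on d80 and a d12 of 1 needs reads at 12 somites, while a low control level at 12 somites helps it reach that d12.

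Both control steps together separated the members into courses. At both steps 19 members rose, of 31 tested at both (61.3%, against 18% of the 40302 transcripts tested at both). They had control medians of 0.0821, 1.19 and 7.80 CPM in order of stage and atRA medians of 0.168, 5.54 and 21.4 CPM. A further 5 rose at the first step and were not called at the second (16.1%, against 18.3%), and their control means at 24 hpf ran from 0.698 to 4.91 CPM. At the first step 4 members fell, including ENSDART00000026749.8 and ENSDART00000144335.1. Of these 4, 2 fell again at the second step (6.45%, against 15.6%), 1 rose (3.23%, against 6.28%) and 1 was not called (3.23%, against 16.9%). The 1 that rose was ENSDART00000144335.1, by 0.41 on the log2 scale, from a 12 somites control level that was used to choose it. The rise is therefore a description, and its call was lost when any one of the 12 somites controls was left out. Of the 5 members below the filter at the first step, 4 were called higher at the second and 1 was not tested. These 4 had at most 12 counts in any 12 somites control and passed the filter through their 24 hpf level. A fall could therefore not be called for them, and the direction of these calls follows from the filter. Another 1 member rose at the first step and fell at the second (3.23%, against 9.24%). A pair of members was not called at either step (6.45%, against 7.81%), and the counts of these 2 were nearly equal in every library compared. The choice and the filter favour the first of these courses, as above.

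**Figure D3:**
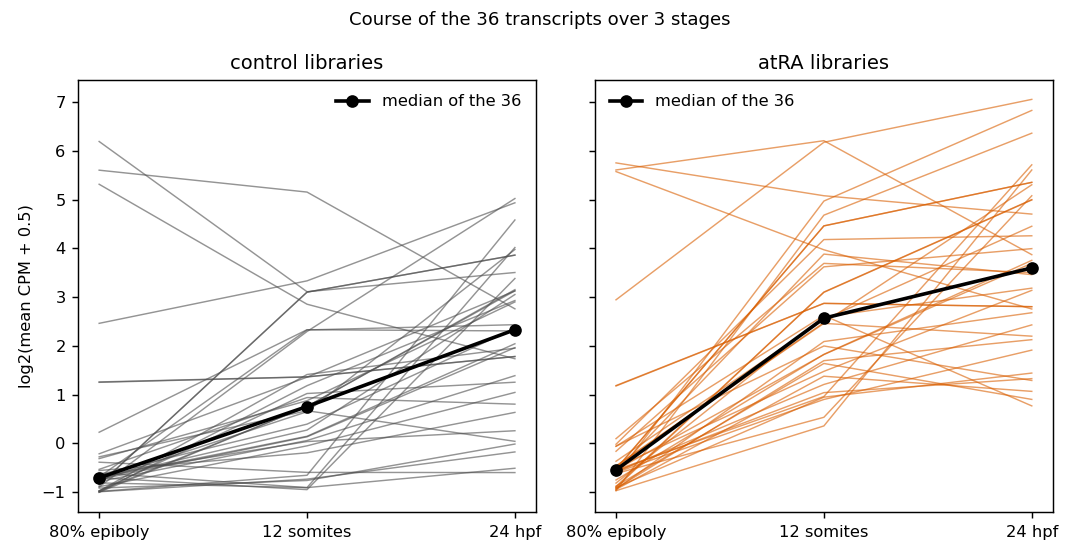
Level of the 36 transcripts, as log2(mean CPM + 0.5) (y axis), at 3 stages (x axis) in control libraries (left) and atRA libraries (right); thin lines are transcripts and the thick line is their median. The median CPM in order of stage was 0.114, 1.19 and 4.54 in controls and 0.187, 5.43 and 11.6 with atRA, and a few transcripts lie high at 80% epiboly in both panels.

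Control levels at 12 somites were under 0.5 CPM for 9 members, and these members did not share 1 course. Of the 9, 3 reached 9.92 to 23.4 CPM in 24 hpf controls from 0.019 to 0.137 CPM at 12 somites. With atRA the same 3 held 0.783 to 1.45 CPM at 12 somites and 33.3 to 51.9 CPM at 24 hpf. Their treated level at 12 somites was thus above control at that stage and below that of 24 hpf controls. The other 6 stayed at or under 1.57 CPM in 24 hpf controls, and with atRA they held 1.37 to 5.66 CPM at 12 somites and 1.21 to 3.87 CPM at 24 hpf. At 12 somites, 2 of the 9 had at most 3 counts in each control library.

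In treated embryos, 23 of 36 members rose from 12 somites to 24 hpf (63.9%, against 36.5% of all transcripts tested) and 7 fell (19.4%, against 34.4%), by edgeR's quasi-likelihood test at an adjusted p under 0.05. In all 30 were called (83.3%, against 70.9% of all), and 14 rose and 3 fell by at least 1 on the log2 scale, beside 21.7% and 10.2% of all transcripts tested. The 7 that fell included ENSDART00000026749.8 and ENSDART00000144335.1, whose atRA level fell by 0.31 on the log2 scale (SE 0.080). A high atRA level at 12 somites was part of the choice, so these falls are a description. Of the 24 members that rose in controls over this step, 21 also rose with atRA, 1 fell and 2 were not called. All 3 that fell in controls also fell with atRA. How often these pairs of calls occurred among all transcripts was not computed, so no excess among members is read from them. The atRA libraries enter the rule, so the split of the members is read as a description.

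The treated level at 12 somites was set beside the control level of the later stage. All atRA libraries of 12 somites lay above all 24 hpf controls for 24 of 36 members, beside 33.3% of the 38152 transcripts. For 6 members they lay wholly below, beside 36.6%, and for 6 the libraries overlapped. After adding 0.5 CPM the treated 12 somites level exceeded the 24 hpf control level by a median of 0.75 on the log2 scale, with a range from -4.22 to 3.45. A high treated level at 12 somites was required by the rule, so nothing is tested here.

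**Figure D4:**
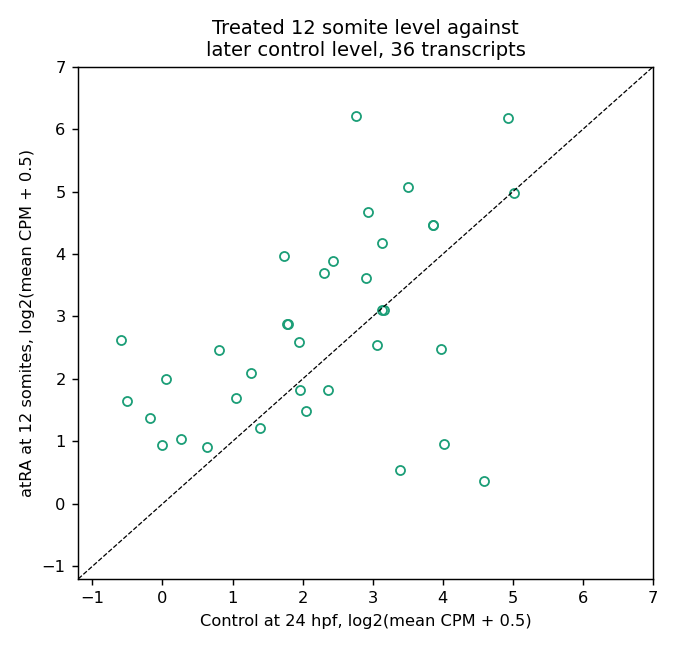
Level of each of the 36 transcripts in atRA embryos at 12 somites (y axis) against controls at 24 hpf (x axis), both as log2(mean CPM + 0.5); the dashed line marks equal levels. Library values lay wholly above the later controls for 24 transcripts and wholly below for 6, and the point farthest under the line has a difference of -4.22.

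Summed over the 36 members, controls held 172.4 ± 6.70 CPM at 80% epiboly, 113.4 ± 6.68 CPM at 12 somites and 261.6 ± 18.6 CPM at 24 hpf (SD, n = 3). The atRA libraries held 164.9 ± 10.8, 437.3 ± 3.96 and 853.0 ± 52.9 CPM (SD, n = 3). Both IDs of each of the 3 pairs with nearly equal counts, described below, enter these sums in full. Reads counted under both IDs of a pair would be summed more than once. A few transcripts carried much of these sums: the 4 highest at 12 somites made up 47.8% of the treated sum there, and the 4 highest at 24 hpf, of which 2 were the same, made up 44.4%. Without ENSDART00000046638.7 the sums at 24 hpf were 231.6 ± 16.9 CPM in controls and 720.7 ± 34.2 CPM with atRA (SD, n = 3). Each of the other members was also chosen for its d24, so this difference follows from the choice. Among members with a mean of at least 100 counts in a group, the median coefficient of variation between replicates was 9.71% in 12 somites controls and 6.78% with atRA, and 14.2% and 13.5% at 24 hpf.

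Some members had nearly the same counts as another. In 3 pairs of members the counts differed by at most 10% in every library with at least 100 counts, a limit chosen after the values were seen and one that sets the number of pairs, and the largest difference in these pairs was 6.2%, 0.0579% and 1.84%. None of the members (0) had counts identical in all libraries to those of another ID. Whether the paired IDs are transcripts of 1 gene is not given by the files.

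Related sets of transcripts were set beside the members, with no test of the differences. A d12 of at least 1 with absolute d80 and d24 under 0.5 was found for 125 transcripts, and a d of at least 1 at all 3 stages for 65. At both later stages 120 transcripts reached a d of 1, of which 83 had a d80 of at least 0.5 and 1 a d80 of -0.5 or less, leaving the 36. From 12 somites to 24 hpf the median log2 change in controls was 0.79 for the 36, 0.59 for the 125 and 0.08 for the 65. From 80% epiboly to 12 somites it was 0.87, 0.45 and 2.49. The median d12 was 1.54, 1.19 and 1.74 in the same order, and the median control level at 80% epiboly was 0.114, 0.377 and 1.06 CPM.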

How the data were processed

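Total RNA from whole embryos was sequenced in 18 libraries, 3 in each of 6 groups taken from the titles. Reads were aligned with STAR and counted with HTSeq on the GRCz10 (danRer10) build, per the submitters' processing notes, and versions, annotation release and strand setting are not given in the sources used here. The deposited files hold raw counts per Ensembl transcript ID, 1 file per library, with summary lines that were left out of library sizes and tests. How reads shared by isoforms, gene copies or overlapping genes were assigned is not stated.

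The rule used CPM from library totals and a pseudocount of 0.5. Tests used edgeR 4.0.16 in R 4.3.3 on all transcripts: filterByExpr, TMM scaling, glmQLFit and glmQLFTest on the 6 libraries compared, Benjamini-Hochberg adjustment over all transcripts tested, and calls at an adjusted p under 0.05. The standard error of a log2 fold change is its size over the root of the F statistic. The procedure was tested on counts simulated with the same spread for every comparison. In the data, edgeR's common coefficient of variation between replicates was 0.049 for atRA against control at 12 somites and 0.20 at 24 hpf. Nothing about the calls at a given stage is therefore read from the simulation. The members, lists and tests were chosen with earlier results of these data known. Without gene names the planned gene lists gave 0 matches and no result. Named transcripts, among members with a mean of at least 10 counts in the groups used, are the largest d12 + d24, the highest treated CPM, and the largest called control falls at each step. Alternatives were DESeq2 1.42.0 size factors and Wald test, library totals, other filters, a fold minimum, a replicate block, each library left out, and other settings of the rule. Floors cover counting error only.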

Additional observations from a re-analysis of the deposited data

Results flagged for a closer look

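For 2 of the 36 transcripts, control and treated embryos followed opposite courses from 12 somites to 24 hpf: all control libraries were higher at 24 hpf than at 12 somites and all atRA libraries were lower. ENSDART00000144335.1 was 1 of them, with control means of 8.14 and 10.8 CPM (10.85) and atRA means of 33.3 and 25.5 CPM. Its 12 somites control level was used to choose it, so its rise in controls is a description. The call of that rise was lost when any 1 of the 12 somites controls was left out. The other had control means of 0.0342 and 0.203 CPM, from 3 and 6 to 19 counts per library, and atRA means of 2.62 and 1.37 CPM. Its control course was below the filter on low counts and was not tested. How many of all transcripts followed opposite courses was not computed. The difference between the courses was not tested, because the rule that chose the transcripts used the same libraries. Groups of 3 libraries were too small to look for outlying samples by a fixed criterion.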

How the results depend on the processing

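The number of members depended on the settings of the rule. It was 71 with a pseudocount of 0.1, of which 26 were among the 36, and 28 with a pseudocount of 1, of which 21 were. It was 78 with d12 and d24 of at least 0.8 and 19 with at least 1.2, which are looser and stricter by construction. TMM-scaled CPM gave 36, of which 33 were shared, and leaving out 1 library gave 30 to 39. At 80% epiboly, members called numbered 7 of 25 tested. They numbered 4 of 14 with at least 10 counts in every library, 4 of 25 with a log2 change of 1 or more in size, and 2 to 6 when 1 library was left out. Over all transcripts it was 10605 of 38203, then 9921 of 34707 and 2241 of 38203, and 7933 of 38784 to 10602 of 39016 without 1 library. The count of members was 2 when control replicate 3 or atRA replicate 2 was dropped, and 4 when control replicate 1 or 2 was dropped. At 24 hpf, 36 were called, 10 with a replicate block and 23 to 36 without 1 library, the lowest without atRA replicate 1. All of these were calls of higher. Over all transcripts, 1694 of 41404 were called higher, 65 of 41404 with the block and 270 of 42678 without that replicate. Whether replicate numbers pair the libraries is not given in the sources used here. Same-numbered deviations correlated at 0.13, -0.61 and -0.66 between atRA and control at 24 hpf. Between control stages 12 somites and 24 hpf they correlated at 0.038, 0.24 and 0.15. Deviations from a mean of 3 libraries depend on each other, so these values cannot decide whether libraries were paired. The block left the other counts of members within 1.5 times. From 80% epiboly to 12 somites in controls, 29 members were called and 15 with at least 10 counts in every library, where 17 could be tested, and 30 to 32 without 1 library. Over all transcripts, 34967 of 41505 were called, and 28366 of 34118 with at least 10 counts in every library. Without 1 library it was 33961 of 42223 to 35292 of 42237. From 12 somites to 24 hpf the counts of members called without 1 library were 27 to 29 in controls and 29 to 31 with atRA. Over all transcripts they were 20984 of 43465 to 31488 of 44151 in controls and 26730 of 41228 to 31559 of 43091 with atRA. A log2 fold change of at least 1 left 17 of 30 members called with atRA, beside 13190 of 29289 transcripts. No scaling moved the share of higher calls among members by over 10 points. Of 155 developmental fold changes of named transcripts under alternatives, 147 kept direction and call and 8 lost the call. None of these, and none of 88 values of d12 and d24, reversed (0).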
